A study of Mus musculus with 6 samples.

Results

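Fatty acid oxidation breaks down fatty acids in mitochondria and peroxisomes, and the 34 genes described here encode its enzymes, transporters and a kinase that sets its rate against that of glucose. They were chosen by gene symbol (the long-chain acyl-CoA synthetases, the carnitine shuttle, the enzymes of the mitochondrial and peroxisomal spirals, the electron transfer flavoprotein system, 2 acyl-CoA thioesterases and Pdk4). The rule itself uses no measured value, but the members were chosen with earlier results of these data known. All 34 symbols were among the 41388 genes of the table. RNA sequencing of whole lung was done on mice of the C57BL/6J background collected at Zeitgeber time 7 (ZT7), 7 h after lights on. The Zpbp2 KO mice (B6.129S7-Zpbp2 tmZuk/Mmjax strain) lacked the 5′ region of Zpbp2, a gene known for its role in sperm, and the wild-type (WT) C57BL/6J mice came from the same colony with no other treatment in either group. The labels gave 3 libraries for WT (WT1, WT2 and WT3) and 3 for KO (KO1, KO2 and KO3). The sex and exact age of the mice behind these libraries are not given in the sources used here.

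In a cell, a fatty acid is first joined to coenzyme A, then carried into the mitochondrion as a carnitine ester, and there shortened step by step into acetyl-CoA. Electrons taken off in the dehydrogenase step pass through the electron transfer flavoproteins to the respiratory chain. Peroxisomes shorten very long-chain and branched fatty acids by a parallel route. Transcription of many of these genes is known to be driven by PPAR alpha and its coactivator PGC-1 alpha, and heart, brown fat, skeletal muscle and liver are the tissues known for the highest rates. In the lung, alveolar type 2 cells use fatty acids mainly to build surfactant lipid.

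Library totals ranged from 59134950 to 71354388 counts, and the lung label was borne out by the surfactant gene Sftpc (12108 to 19570 CPM, the count scaled to 1e+06 per library) and the club cell gene Scgb1a1 (23366 to 42793 CPM). Zpbp2 itself had 20, 15 and 7 counts in WT1, WT2 and WT3 and 1, 0 and 0 counts in KO1, KO2 and KO3 (adjusted p = 0.0653, edgeR quasi-likelihood test). KO2 and KO3 differed by 1.71 to 1.93 times the variance of counting alone for genes of under 20000 counts and by 3.32 times above that, against 1.86 to 21 and 32.4 to 147 for the other pairs within a genotype. They were therefore summed and counted as 1 sample, giving 3 WT and 2 KO samples, although the labels name them as separate samples and the methods speak of 3 KO mice. Results with 6 separate libraries are given beside for each member called in either fit. WT3 and KO1 stood apart from the other libraries on the first principal component (59.1% of the variance). They carried squamous epithelium markers at 4697 and 8765 summed CPM, against 63.0 to 80.1 in the other 4 libraries, and skeletal muscle markers at 3319 and 4875 against 38.5 to 121. For the members called with 5 samples or with 6 separate libraries, the log2 difference is therefore also given for 2 library sets, WT1 and WT2 against KO2 and KO3 (the first set) and WT3 against KO1 (the second set), without a test. All p-values measure the spread between these samples, and in bulk tissue fewer cells of a type and less RNA per cell cannot be told apart.

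Across the 34 genes, 1 fell in KO (Acsl1) and 0 rose at an adjusted p of at most 0.05 in the edgeR quasi-likelihood test over 18660 genes. Of all tested genes 426 were called (2.28%), 169 lower (0.906%) and 257 higher (1.38%). Scaling by total count instead of TMM turned that balance to 189 lower and 117 higher, with Acsl1 still the member called. Before adjustment (p of at most 0.05), 13 members were lower and 2 higher, against 13.4% and 13.9% of all tested genes. DESeq2 on the same 5 samples called 11 members lower and 2 higher, against 10.5% and 11% of the genes it tested.

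With the 6 libraries kept separate, 10 members were called lower (Acsl1, Cpt2, Crat, Acadm, Acadl, Hadha, Decr1, Etfa, Etfdh and Pdk4) and 2 higher (Acox2 and Acaa1a), beside 9.07% and 9.81% of 18014 genes. All 34 members passed the filter on low counts, and the lowest, Acaa1b, was at 3.99 to 5.15 CPM. In the 5-sample fit 22 members had a negative log2 fold change (KO minus WT; 25 when scaled by total count) and 12 a positive one, with a median of -0.18 against 0.02 over all tested genes. Every KO library lay below every WT library for 15 members and above it for 4 (Acsl5, Abcd3, Acox2 and Acaa1a), and the genotypes overlapped for the other 15. Over all tested genes these shares were 20.7% below and 20.1% above.

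**Figure D1:**
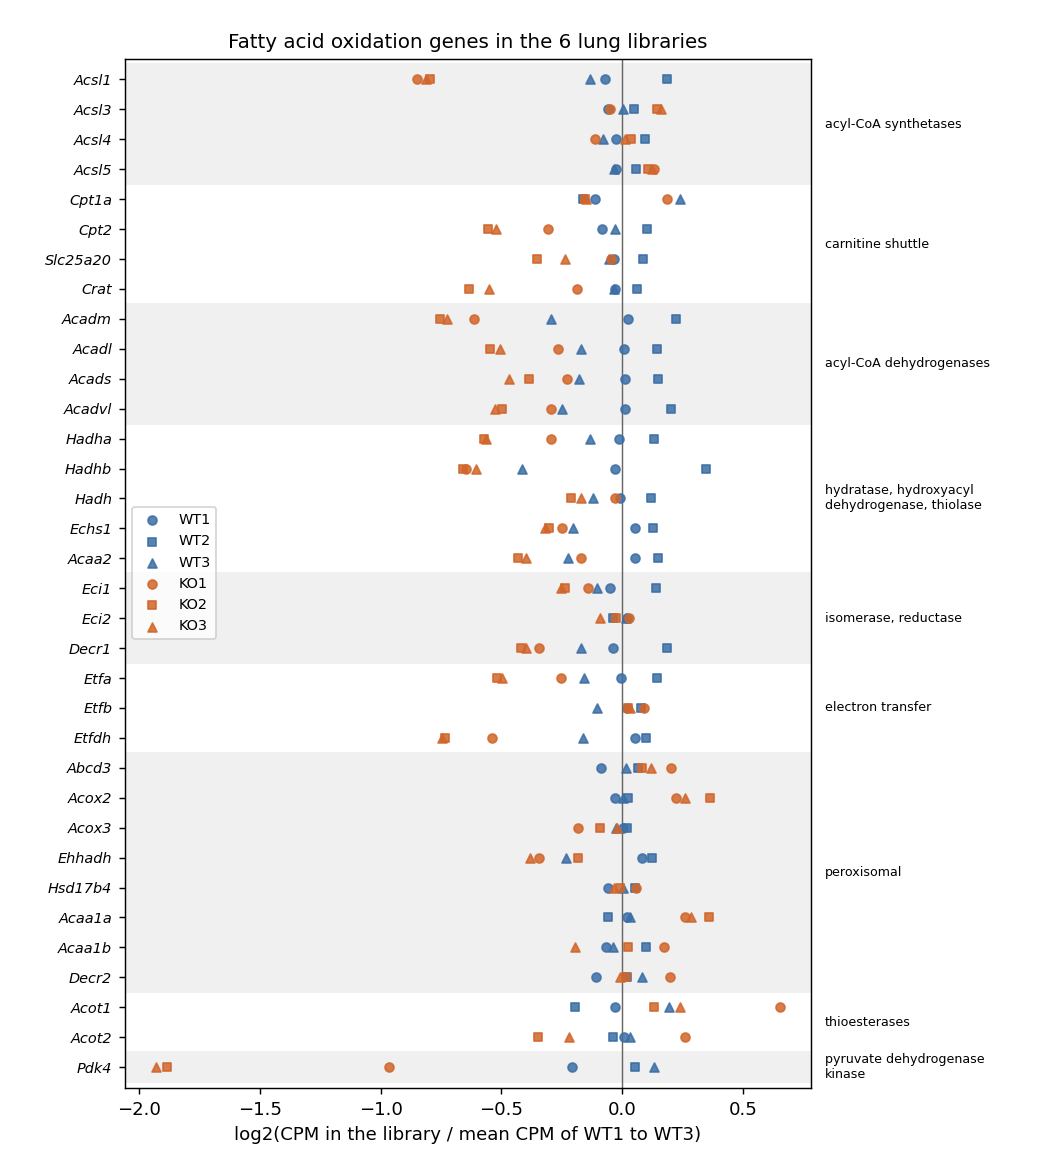
The log2 ratio of each library's CPM to the WT mean (x axis) is shown for the 34 genes (y axis), ordered by role, with WT libraries in blue and KO libraries in orange. Symbols give the replicate number, and KO points sit to the left of all WT points for 15 genes and to the right for 4.

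The acyl-CoA synthetases join coenzyme A to a long-chain fatty acid. Acsl1, the form that prevails in fat, heart and liver, was at 171, 204 and 164 CPM in WT1, WT2 and WT3 and at 99.9, 104 and 102 CPM in KO1, KO2 and KO3. All 3 KO libraries were close together and lay below every WT library. It fell to 0.566 times the WT level (log2 fold change -0.82, SE 0.11, adjusted p = 0.0448, edgeR quasi-likelihood test, 3 WT and 2 KO samples). The log2 difference was -0.87 in the first library set and -0.71 in the second. The call was lost without any 1 of the WT libraries (log2 fold change -0.89 to -0.73, adjusted p of 0.123 to 0.189). It was also lost without KO1 (log2 fold change -0.81), a fit with 1 KO sample. The call was lost too with an offset for gene length and GC content (log2 fold change -0.60, adjusted p = 0.107). With every library kept separate, Acsl1 was called without the offset (-0.82, adjusted p = 0.00624) and with it (-0.60, adjusted p = 0.0117).

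Acsl5, which had the highest level per length of the 4 synthetases (55.1 CPM per kb of exon in WT), was at 263, 279 and 262 CPM in WT and 294, 289 and 292 CPM in KO. Every KO library lay above every WT library by a small margin (log2 fold change 0.13, SE 0.05, adjusted p = 0.207). Acsl3 and Acsl4 overlapped between genotypes, with log2 fold changes of 0.06 and -0.04. So the 4 synthetases did not share a direction, and their summed level was 575, 636 and 563 CPM in WT and 528, 542 and 542 CPM in KO.

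Acsl1 lies on chromosome 8 (GRCm38, 46471037 to 46536051, plus strand), and 9.91% of its exon bases are also in Gm45244, an annotated gene on the opposite strand. Its promoter (RefSeq, GRCm38.p6, chr8:46470787-46471086, plus strand, 250 bases before to 50 after the gene's start) is shown because it belongs to the one member called. A second RefSeq start of Acsl1 (window chr8:46490716-46491015) holds none of the motifs searched. In the first window capitals mark GC boxes (GGGCGG on either strand), of which it holds 7, and 74.0% of its bases are G or C.
Acsl1 promoter: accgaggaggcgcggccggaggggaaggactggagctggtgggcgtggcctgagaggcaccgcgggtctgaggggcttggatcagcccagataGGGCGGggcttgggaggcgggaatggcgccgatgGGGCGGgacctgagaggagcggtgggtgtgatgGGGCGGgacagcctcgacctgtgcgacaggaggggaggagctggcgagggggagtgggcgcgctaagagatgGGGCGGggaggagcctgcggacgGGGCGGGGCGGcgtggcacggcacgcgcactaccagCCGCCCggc

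The carnitine shuttle moves long-chain acyl groups across the mitochondrial membranes. Cpt1a, the outer-membrane transferase that is known as the rate-setting step, was at 145, 141 and 185 CPM in WT and 179, 141 and 142 CPM in KO. Its high values were those of WT3 and KO1, and the genotypes overlapped (log2 fold change 0.03, SE 0.16, adjusted p = 0.924). The inner-membrane transferase Cpt2 was at 38.5, 43.9 and 40.0 CPM in WT and 33.0, 27.8 and 28.4 CPM in KO. No KO library of Cpt2 reached a WT library (log2 fold change -0.42, SE 0.09, adjusted p = 0.0716, and 0.0178 with 6 separate libraries). Its log2 difference was -0.55 in the first library set and -0.28 in the second.

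Crat, which makes acetylcarnitine and has the highest level per length of the shuttle genes in WT (21.7 CPM per kb), was at 115, 122 and 114 CPM in WT and 103, 75.4 and 79.9 CPM in KO. KO1 was nearer to WT than KO2 and KO3 were (log2 fold change -0.37, SE 0.12, adjusted p = 0.139, and 0.0472 with 6 separate libraries). The log2 difference of Crat was -0.61 in the first set and -0.15 in the second. Slc25a20, the carnitine carrier, stood at -0.16 (adjusted p = 0.312), and its KO1 library lay among the WT libraries.

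The acyl-CoA dehydrogenases carry out the first step of each turn and are named for the chain length they prefer. All 4 had every KO library below every WT library, with log2 fold changes of -0.67 to -0.32 and a median of -0.39, beside 20.7% of all tested genes with every KO library below WT, and none passed the 5-sample test. Acadm, the medium-chain enzyme, was at 136, 156 and 109 CPM in WT and 87.5, 79.4 and 81.1 CPM in KO. WT2 was the highest and WT3 the lowest of its WT libraries, while the KO libraries were close together (log2 fold change -0.67, SE 0.16, adjusted p = 0.0793, and 0.0181 with 6 separate libraries). The first library set gave -0.87 and the second -0.32.

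Acadl, the long-chain enzyme and the highest dehydrogenase per length (98.3 CPM per kb in WT, 75.0 in KO), was at 198, 218 and 175 CPM in WT and 164, 135 and 139 CPM in KO. Between WT3 and KO1 the difference was small (log2 -0.09, against -0.61 in the first set), and the test gave -0.39 on the log2 scale (SE 0.12, adjusted p = 0.130, and 0.0382 with 6 separate libraries). Acads and Acadvl, the short-chain and very long-chain enzymes, had log2 fold changes of -0.32 and -0.40 (adjusted p = 0.158 and 0.169). For Acadvl 42.9% of the exon bases are shared with Dvl2 on the opposite strand, and whether counting used the strand was not stated, so its counts are uncertain.

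The Acadm promoter (RefSeq, GRCm38.p6, chr3:153944594-153944893, minus strand of the genome) is shown because the gene, a known target of PPAR alpha, had the most negative log2 fold change of the 4 dehydrogenases, and it is 1 of 4 members with a match to the nuclear receptor hexamer. Capitals mark that hexamer, AGGTCA, read on the opposite strand.
Acadm promoter: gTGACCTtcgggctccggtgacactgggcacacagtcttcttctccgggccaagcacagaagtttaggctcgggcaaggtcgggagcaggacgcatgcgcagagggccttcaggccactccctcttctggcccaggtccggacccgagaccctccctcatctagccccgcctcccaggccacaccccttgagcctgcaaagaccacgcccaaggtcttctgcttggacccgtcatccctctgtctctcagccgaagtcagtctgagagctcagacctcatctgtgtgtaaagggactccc

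The later steps of the turn hydrate, oxidise and cleave the acyl chain. Hadha and Hadhb encode the alpha and beta subunits of the mitochondrial trifunctional protein, which does all of these for long chains. Hadha was at 209, 231 and 192 CPM in WT and 172, 142 and 143 CPM in KO, with no overlap (log2 fold change -0.42, SE 0.12, adjusted p = 0.0993, and 0.0266 with 6 separate libraries), and its log2 difference was -0.63 in the first library set and -0.16 in the second. Hadhb was at 21.1, 27.4 and 16.2 CPM in WT and 13.8, 13.6 and 14.2 CPM in KO, again with no overlap (log2 fold change -0.64, SE 0.23, adjusted p = 0.158), and the sets gave -0.80 and -0.23. Although the subunits are known to assemble in equal number, their levels per length were 24.1 and 3.27 CPM per kb in WT. Of the 50-base stretches of Hadhb transcripts, 19.7% also occur in other genes (18.1% in Gm13910), so its counts are uncertain.

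Acaa2, the medium-chain thiolase and the highest of all 34 genes per length (116 CPM per kb in WT), was at 182, 194 and 150 CPM in WT and 156, 130 and 133 CPM in KO. KO1 lay above WT3, so the genotypes overlapped (log2 fold change -0.28, SE 0.14, adjusted p = 0.254). Echs1, the short-chain hydratase, had every KO library below every WT library at a log2 fold change of -0.27 (adjusted p = 0.185). Hadh, the short-chain hydroxyacyl dehydrogenase, overlapped at -0.11 (adjusted p = 0.515).

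Hadha and Hadhb are transcribed in opposite directions from neighbouring starts on chromosome 5, with 85 bases between the annotated genes. Their promoter windows, placed by RefSeq starts, share 228 bases (RefSeq, GRCm38.p6, chr5:30155003-30155230). Part of this stretch lies within the annotated Hadha gene. The shared stretch is shown in the direction of Hadhb, the plus strand, because the windows of both subunits of one protein hold it. The single GC box in it is in capitals.
Hadha and Hadhb shared promoter: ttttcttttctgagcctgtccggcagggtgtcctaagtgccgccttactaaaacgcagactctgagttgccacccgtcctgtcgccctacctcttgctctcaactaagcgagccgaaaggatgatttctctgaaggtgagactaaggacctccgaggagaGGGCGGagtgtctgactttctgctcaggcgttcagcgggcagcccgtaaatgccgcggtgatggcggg

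Unsaturated chains need further enzymes. Eci1, the mitochondrial enoyl-CoA isomerase with the highest level of this group per length in WT (21.04 CPM per kb), was at 43.3, 49.3 and 41.6 CPM in WT and 40.6, 38.0 and 37.5 CPM in KO. Its KO libraries lay just below WT (log2 fold change -0.19, SE 0.09, adjusted p = 0.241). Decr1, the dienoyl-CoA reductase, stood at -0.37 without overlap (adjusted p = 0.114, and 0.0330 with 6 separate libraries), and the library sets gave -0.49 and -0.17. Eci2, an isomerase found in mitochondria and peroxisomes, overlapped at -0.01.

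The electron transfer flavoprotein takes up electrons from the dehydrogenases, and Etfdh passes them to ubiquinone. Etfdh was at 84.7, 87.4 and 73.1 CPM in WT and 56.3, 49.1 and 48.8 CPM in KO, with a wide gap between the genotypes. Its log2 fold change was -0.63 (SE 0.10, adjusted p = 0.0513, and 0.00881 with 6 separate libraries), with -0.81 in the first library set and -0.38 in the second. Etfa, the alpha subunit, was at 92.8, 103 and 83.4 CPM in WT and 78.03, 64.9 and 65.9 CPM in KO (log2 fold change -0.37, SE 0.12, adjusted p = 0.127, and 0.0376 with 6 separate libraries). The first set gave -0.58 for Etfa and the second -0.10.

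Etfb, the beta subunit, was at 107, 111 and 98.1 CPM in WT and 112, 107 and 108 CPM in KO, with full overlap (log2 fold change 0.06, SE 0.07, adjusted p = 0.611). Its sign was negative in the first library set (-0.022) and with the gene length and GC offset (-0.13), and positive in the second set (0.19). Per length it was the highest of this group (90.6 CPM per kb in WT, 94.3 in KO). Of its exon bases 58.3% are also annotated as Gm45233 or Mir7051 on the same strand, so its counts are uncertain.

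Taken as a group, the 19 genes of the carnitine shuttle and the mitochondrial steps had 17 negative log2 fold changes (18 when scaled by total count) and a median of -0.37. No KO library reached a WT library for 13 of them, and none had all KO libraries above WT, beside 20.7% and 20.1% of all tested genes. Their summed level was 2024, 2198 and 1860 CPM in WT1, WT2 and WT3 and 1769, 1522 and 1538 CPM in KO1, KO2 and KO3. The libraries of each genotype were ordered alike in most of these genes. WT2 was above WT1 and WT1 above WT3 in 16 of the 19, and KO1 was the highest KO library in 18.

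Between WT1 and WT2 and KO2 and KO3 all 19 genes were lower in KO, with a median log2 difference of -0.51. Between WT3 and KO1, the libraries with squamous and skeletal muscle markers, 14 of the 19 were lower, with a median of -0.05. Over all 34 genes these medians were -0.31 (27 lower) and -0.05 (20 lower). In a fit of only WT1, WT2 and the summed KO2 and KO3, 15 members were called lower and 1 higher, beside 5.88% and 6.01% of 18971 genes. A fit of all WT libraries against KO1 alone called 0 of 19110 genes and so 0 members (edgeR quasi-likelihood test). Before adjustment it gave 10 of the 34 members, beside 26.5% of all genes, a share near the background. The single KO sample in each of these fits was assumed to vary like the WT samples.

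**Figure D2:**
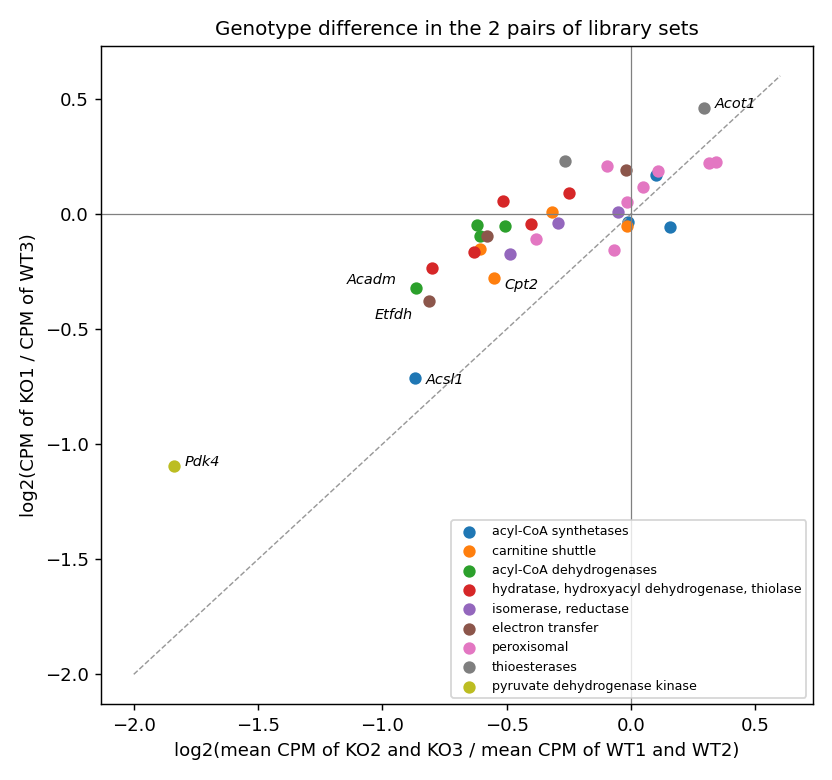
Each point is 1 of the 34 genes, coloured by role, with the log2 difference of KO2 and KO3 from WT1 and WT2 on the x axis and that of KO1 from WT3 on the y axis. The dashed line marks equal differences, and most mitochondrial genes lie left of 0 and above that line, while Acsl1 lies near it.

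Of the 8 peroxisomal genes, 6 had a positive log2 fold change and 2 a negative one (5 and 3 when scaled by total count, median 0.08), and their summed level was 516, 541 and 532 CPM in WT and 574, 568 and 562 CPM in KO. Acaa1a, the peroxisomal thiolase, was at 107, 101 and 108 CPM in WT and 126, 135 and 128 CPM in KO, and the KO libraries all lay above the WT libraries. Its log2 fold change was 0.30 (SE 0.06, adjusted p = 0.0589, and 0.0126 with 6 separate libraries), with 0.34 in the first library set and 0.23 in the second. Its near-identical copy Acaa1b was at 4.36, 4.89 and 4.45 CPM in WT and 5.15, 4.64 and 3.99 CPM in KO, with overlap. Since 30.5% of the 50-base stretches of Acaa1b also occur in Acaa1a, reads could be shared or lost between them, and the level of Acaa1b is uncertain.

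Acox2, the oxidase of branched chains and bile acid intermediates, was at 21.7, 22.5 and 22.1 CPM in WT and 25.8, 28.4 and 26.5 CPM in KO. All KO libraries lay above WT (log2 fold change 0.27, SE 0.06, adjusted p = 0.0737, and 0.0195 with 6 separate libraries), and the sets gave 0.31 and 0.22. Abcd3, a transporter of fatty acids into the peroxisome, also had every KO library above WT, at a log2 fold change of 0.16 (adjusted p = 0.201). Hsd17b4, the multifunctional enzyme of branched and very long chains and the highest peroxisomal gene per length (37.7 CPM per kb in WT, 38.2 in KO), was at 123, 133 and 129 CPM in WT and 133, 128 and 125 CPM in KO, with full overlap. Acox3, Decr2 and Ehhadh overlapped too, at -0.11, 0.11 and -0.30, and Ehhadh, the bifunctional enzyme, was the most negative of the 8.

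The thioesterases release the fatty acid from coenzyme A again. Acot1, the cytosolic form, was at 12.8, 11.4 and 14.9 CPM in WT and 20.5, 14.3 and 15.4 CPM in KO. KO1 was the highest library and KO2 lay below WT3 (log2 fold change 0.44, SE 0.18, adjusted p = 0.200). Acot2, the mitochondrial form and the higher of the pair per length (4.70 CPM per kb in WT, 4.75 in KO), was at 10.4, 10.05 and 10.6 CPM in WT and 12.4, 8.11 and 8.87 CPM in KO. Its KO libraries lay on both sides of WT (log2 fold change 0.02, adjusted p = 0.963). Of the 50-base stretches of Acot2, 24.6% also occur in Acot1, so the division of reads between them is uncertain.

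Pdk4 phosphorylates pyruvate dehydrogenase and so turns a cell from glucose towards fatty acids. It was at 60.7, 72.5 and 76.7 CPM in WT and 35.9, 18.9 and 18.3 CPM in KO. This was the most negative log2 fold change of the 34 genes (-1.36, SE 0.30, or 0.390 times the WT level). KO1 lay between the WT libraries and the other KO libraries, the KO samples spread widely (27.3 ± 12.2 CPM, SD, n = 2, against 70.0 ± 8.31, n = 3 in WT), and the adjusted p was 0.0704 (edgeR quasi-likelihood test, and 0.0172 with 6 separate libraries). Both library sets showed it, at a log2 difference of -1.84 in the first and -1.10 in the second.

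The Pdk4 promoter (RefSeq, GRCm38.p6, chr6:5496229-5496528, minus strand of the genome) is shown for contrast with the preceding ones. It held none of the 6 motifs searched, so no base is in capitals. The windows of Acsl5, Etfa, Abcd3, Acox2, Acaa1b and Acot2 also held none, so this does not set Pdk4 apart.
Pdk4 promoter: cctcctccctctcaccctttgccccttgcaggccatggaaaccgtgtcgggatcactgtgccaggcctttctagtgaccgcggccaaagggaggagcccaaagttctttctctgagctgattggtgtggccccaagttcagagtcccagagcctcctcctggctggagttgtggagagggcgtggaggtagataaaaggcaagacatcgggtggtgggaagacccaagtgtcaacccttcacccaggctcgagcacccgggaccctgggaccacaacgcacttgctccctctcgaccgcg

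**Figure D3:**
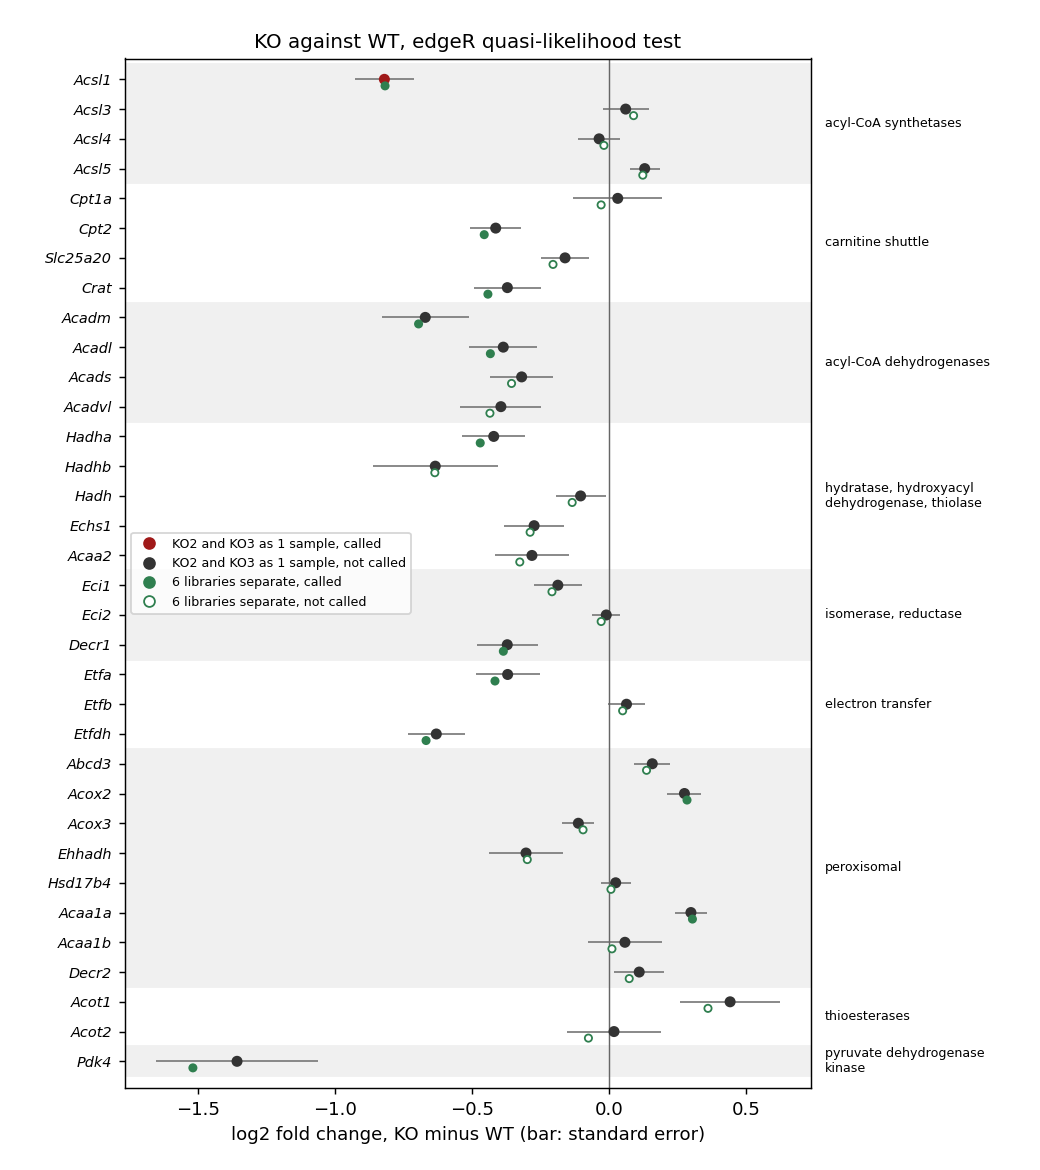
Log2 fold changes of KO against WT (x axis) from the edgeR quasi-likelihood test are shown for the 34 genes (y axis) by role, with standard errors as bars. Black and red points count KO2 and KO3 as 1 sample and green points keep 6 libraries separate. Acsl1 is the only red (called) point, and 12 green points are filled (called).

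Promoter windows of 300 bases were found for 30 of the 34 genes, 33 windows in all with alternative starts, and were searched on both strands for 6 short motifs. The nuclear receptor hexamer AGGTCA was in 4 of the 33 windows (12.1%; Acadm, Acadvl, Cpt1a and Echs1), against 16.3% of 32851 RefSeq promoters of the same length. Neither the DR1 direct repeat of that hexamer, the PPAR element, nor the longer TCAAGGTCA of estrogen-related receptors was in any window, against 0.0396% and 0.423% of all. Both motifs contain the hexamer. The E-box CACGTG of the clock factors and the FOXO motif TGTTTAC were in 0 windows, against 7.15% and 3.65%. GC boxes were in 21 windows (63.6%), against 35.7% of all promoters. The base composition of the member windows ranged from 43.7% to 76.3% G and C, and most of them were above the median of 52.7% over all promoters. Whether the GC boxes go with this base composition was not tested. A match is a run of letters and not a bound site, and these windows do not cover distal elements.

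The regulators and supply genes of the pathway were listed separately. Of 78 such genes 77 were tested, and 3 fell (Ppara, Lpl and Lipe) and 0 rose in edgeR, beside 0.906% and 1.38% of all tested genes. Before adjustment 29 were lower and 5 higher, against 13.4% and 13.9% of all, and DESeq2 called 24 lower and 5 higher, against 10.5% and 11%. As with Acsl1, these calls were lost without any 1 of the WT libraries and with the gene length and GC offset, which left 0 genes called. With the offset the log2 fold changes of Ppara, Lipe and Lpl were -1.34, -0.89 and -0.82, beside -1.32, -0.91 and -1.04 without it. With every library kept separate and the offset, all of them were called (adjusted p = 0.0124, 0.0140 and 0.00383, edgeR quasi-likelihood test). Ppara, which encodes PPAR alpha, was at 8.92, 10.8 and 7.79 CPM in WT and 3.59, 3.85 and 3.598 CPM in KO. Every KO library was less than the lowest WT library by a wide margin (log2 fold change -1.32, SE 0.17, adjusted p = 0.0446, edgeR quasi-likelihood test), and the library sets gave -1.40 and -1.12. It was the 1 called gene of 14 regulators, of which 9 had a negative log2 fold change.

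Ppargc1a, which encodes PGC-1 alpha, was at 17.7, 14.7 and 12.6 CPM in WT and 8.76, 10.5 and 9.30 CPM in KO, without overlap (log2 fold change -0.68, adjusted p = 0.0897). Nr1d1, the clock repressor REV-ERB alpha, was at 286, 253 and 296 CPM in WT and 401, 390 and 389 CPM in KO, also without overlap (log2 fold change 0.51, adjusted p = 0.0512).

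Lpl, the lipase that frees fatty acids from circulating triglyceride, was at 367, 364 and 367 CPM in WT and 178, 175 and 177 CPM in KO. The libraries of a genotype were nearly identical, and it fell by 1.04 on the log2 scale (SE 0.05, adjusted p = 0.0251, edgeR quasi-likelihood test), with -1.05 and -1.04 in the library sets. It was the 1 called gene of 11 in fatty acid uptake and binding, a group in which 7 log2 fold changes were negative. The fatty acid receptor Cd36 was at 1154, 1288 and 1114 CPM in WT and 1037, 871 and 891 CPM in KO (log2 fold change -0.30, adjusted p = 0.144).

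Lipe, the hormone-sensitive lipase, was at 124, 161 and 132 CPM in WT and 74.1, 72.3 and 75.1 CPM in KO, far below every WT library (log2 fold change -0.91, SE 0.12, adjusted p = 0.0450), and the sets gave -0.95 and -0.84. It was the 1 called gene of 9 in lipolysis and malonyl-CoA, with 7 negative log2 fold changes and a median of -0.49. Of 30 further oxidation enzymes tested 18 were negative (median -0.14), and of 13 peroxisome assembly genes 4 were negative (median 0.02), with 0 called in both groups by edgeR. Before adjustment the enzymes gave 11 lower and 2 higher and the assembly genes 2 lower and 1 higher, beside 13.4% and 13.9% of all tested genes. DESeq2 called 7 enzymes lower and 2 higher and 1 assembly gene in each direction, beside 10.5% and 11%.

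**Figure D4:**
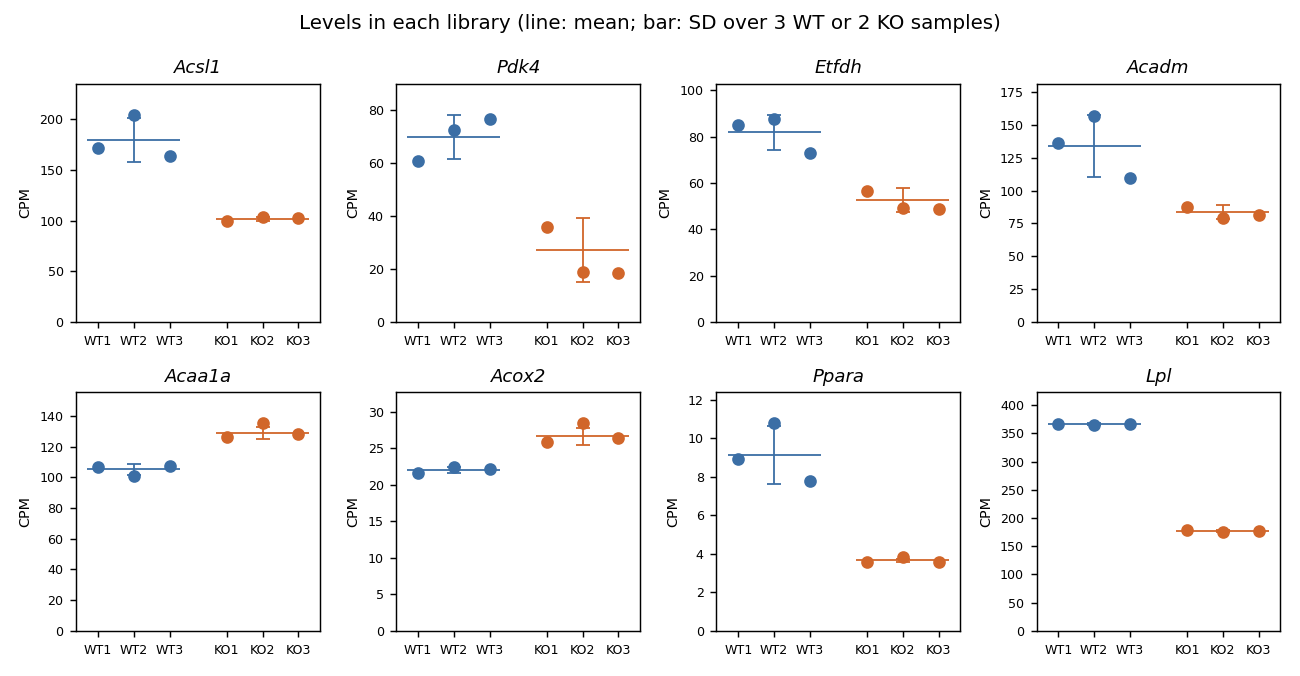
CPM (y axis, from 0) in each of the 6 libraries (x axis) is shown for 6 of the 34 genes and for Ppara and Lpl, with lines for the mean and bars for the SD over 3 WT or 2 KO samples. WT points of Acsl1, Pdk4, Etfdh, Acadm, Ppara and Lpl lie above all KO points, and those of Acaa1a and Acox2 lie below them.

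Markers of tissues that burn or store fat were not even across the libraries. Over all tested genes, 20.7% had every KO library below and 20.1% above every WT library, and 0.906% were called lower and 1.38% higher. Every marker call given here was lost without any 1 of the WT libraries and with the gene length and GC offset, which left 0 genes called. With the offset the called markers kept their sign. Those of adipocytes stood at -3.91 to -1.86 (-3.87 to -1.68 without it) and those of alveolar type 2 cells at 0.32 to 0.46 (0.43 to 0.62). With 6 separate libraries and the offset all of these markers were called (adjusted p of 0.00352 to 0.0498, edgeR quasi-likelihood test). All 14 adipocyte markers had every KO library below every WT library and 5 of them fell (Plin1, Plin4, Aoc3, Sncg and Pck1), with summed levels of 1236, 1699 and 1221 CPM in WT and 354, 392 and 396 CPM in KO. All 5 are also in the study's list of ZT7 genes lower in KO, which comes from these same libraries. Other adipocyte, brown adipocyte and cardiomyocyte markers are in it too, so these marker counts are no independent evidence. Brown adipocyte markers summed to 157, 267 and 74.0 CPM in WT and 44.4, 25.8 and 24.8 CPM in KO, the same order of libraries within each genotype as the summed mitochondrial genes except for KO2 and KO3. Ucp1, the uncoupling protein that defines brown fat, was at 49.5, 132 and 6.27 CPM in WT and 0.0954, 0.0968 and 0.137 CPM in KO. Its KO values come from 6, 6 and 8 counts.

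Cardiomyocyte markers summed to 7830, 3394 and 2844 CPM in WT and 1693, 1437 and 1447 CPM in KO, and 13 of 15 had no overlap. Of 11 hepatocyte markers, 7 had every KO library above every WT library. Alb, the albumin gene, was at 0.968 to 1.27 CPM in WT and 3.07, 24.04 and 24.96 CPM in KO (adjusted p = 0.0753, edgeR quasi-likelihood test). Their sum, 50.2 to 72.2 CPM in WT and 20.7 to 94.0 CPM in KO, included Cyp2e1 at 45.7 to 68.3 CPM in WT and 12.9 to 45.2 CPM in KO. Alveolar type 2 markers went the other way, at 21585 to 22566 CPM in WT and 30477 to 32286 CPM in KO, with 8 of 9 genes above WT in every KO library and 3 called higher. Erythroid markers summed to 2670, 2403 and 5525 CPM in WT1, WT2 and WT3 and to 3973, 19010 and 19746 CPM in KO1, KO2 and KO3. KO1 thus lay below WT3, and KO2 and KO3, the KO libraries of the first library set, were far above all others. The part of any of these cells in the levels of the 34 genes was not tested.

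Other lung cell markers were also counted. Summed ciliated cell markers were at 2127 to 2472 CPM in WT and 2000 to 2800 CPM in KO, and club cell markers at 27438 to 32243 and 36875 to 48831 CPM. Endothelial markers were at 4335 to 4701 CPM in WT and 4117 to 5025 CPM in KO, and the 6 macrophage markers in the table at 414 to 494 and 352 to 365 CPM. The ciliated cell gene Tppp3 rose in edgeR (log2 fold change 0.45, adjusted p = 0.0447), in a list with 5 positive and 3 negative log2 fold changes. The macrophage receptor gene Mrc1 fell (-0.56, adjusted p = 0.0474), in a list with 1 positive and 5 negative. Of the club and endothelial markers 0 were called in edgeR. Before adjustment 3 ciliated and 2 club markers were higher and 3 macrophage markers lower, and 2 endothelial markers were higher and 1 lower. The shares over all tested genes were 13.9% higher and 13.4% lower. DESeq2 called 3 ciliated, 2 club and 2 endothelial markers higher and 3 macrophage markers lower, beside 11% and 10.5% of all genes. Gene length also went with the comparison, since over 18520 tested genes, which share the same libraries, log2 fold change and exon length had a Spearman correlation of -0.334. The members' median exon length was 3916 bases, against 3786 over all tested genes.

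**Figure D5:**
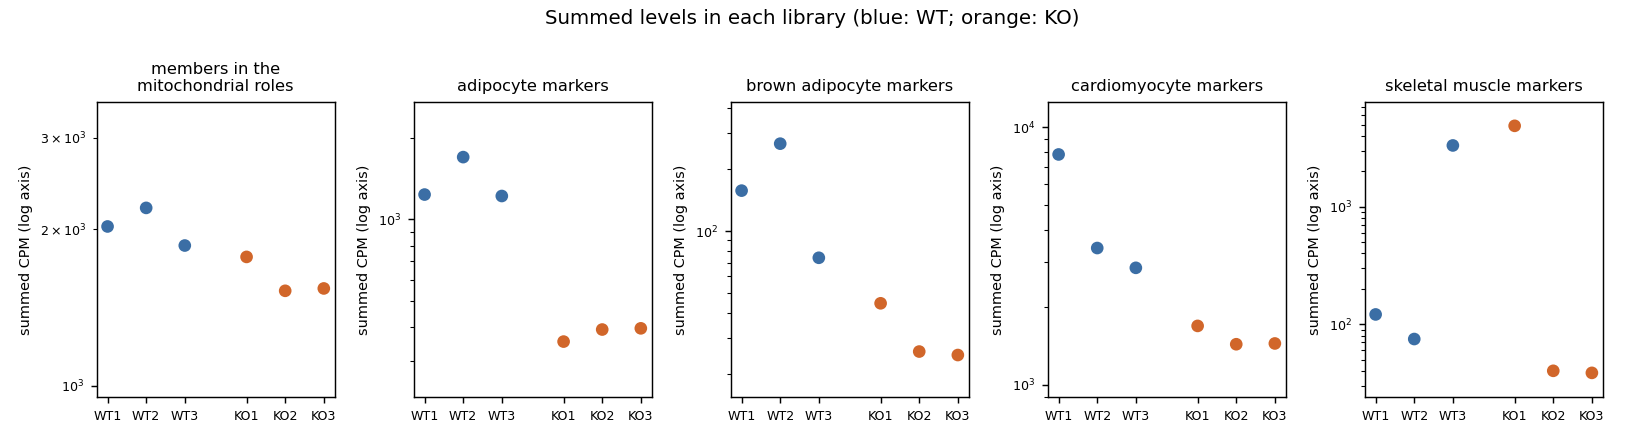
Summed CPM (y axes, log scale) in each of the 6 libraries (x axes) is shown for the 19 mitochondrial members and for adipocyte, brown adipocyte, cardiomyocyte and skeletal muscle markers, WT in blue and KO in orange. Fat and heart muscle markers are higher in all WT than in all KO libraries, and skeletal muscle markers are high in WT3 and KO1 alone.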

How the data were processed

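RNA from whole lungs of 3 WT and 3 KO mice was sequenced (total RNA, ZT7). The authors deposited raw counts of reads for each gene in each library, not normalized. The submitters' processing notes name Trimmomatic 0.36, STAR 2.5.3a, Picard 2.9.0 and HTSeq 0.6.0, with alignment to mm10 (GRCm38) in the GenPipes pipeline. The annotation release and whether counting used the strand are not given in the sources used here, so counts of overlapping or near-identical genes are uncertain. Positions came from GENCODE on GRCm38 (97.47% of 41388 identifiers) and promoter sequences from RefSeq (GRCm38.p6).

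Counts were tested with edgeR 4.0.16 in R 4.3.3 (TMM scaling, filterByExpr, two-sided quasi-likelihood test, Benjamini-Hochberg adjustment over all tested genes, with a threshold of 0.05). KO2 and KO3 were summed into 1 sample. CPM is the count per 1e+06 of the TMM-scaled library size, and CPM per kb divides it by the merged exon length. The least detectable level, 3 counts, was 0.0410 to 0.0514 CPM, which covers counting error only.

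Values in every library are given for each member called, each called with 6 separate libraries at a log2 fold change of at least 0.4 in size, the highest member of each role per length, and near-identical pairs; of the wider lists, called genes and Ppara, Ppargc1a, Nr1d1, Cd36 and Lpl. Members and lists were chosen with earlier results of these data known. Alternatives were 6 separate libraries, other scalings and filters, DESeq2 1.42.0, a squamous term (summed marker level as covariate), a gene length and GC offset, and leaving out libraries.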

Additional observations from a re-analysis of the deposited data

How the results depend on the processing

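Acsl1 had a negative log2 fold change in every alternative run. The number of all genes called, 426 in the fit reported, was 3402 with 6 separate libraries, 3875 with DESeq2, 937 when 10 counts were required in each library, 2027 with a squamous epithelium term, 0 with the gene length and GC offset, 2256 with only WT1, WT2 and KO2 with KO3, and 0 to 418 when 1 library was left out (0 without any 1 WT library, 17 without KO1). Members called lower numbered 10 with 6 separate libraries, 11 with DESeq2, 2 with no filter on low counts or with 10 counts required (Acsl1 and Etfdh), 4 with the squamous term, 0 with the offset, 15 with only WT1, WT2 and KO2 with KO3, and 0 to 1 when 1 library was left out. Members called higher numbered 2 with 6 separate libraries, DESeq2 or the squamous term and 1 with only WT1, WT2 and KO2 with KO3. The members' median, -0.18, was -0.28 to -0.12 when 1 library was left out, -0.31 with only WT1, WT2 and KO2 with KO3, and -0.046 for WT3 and KO1 alone. The cause of these differences was not tested.

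Labels of WT and KO share replicate numbers, and deviations of same-numbered libraries correlated at -0.55, 0.717 and -0.773. Those of WT3 and KO1, the libraries with squamous and skeletal muscle markers, correlated at 0.803. With these markers in the deviations, the correlations cannot decide whether the numbers pair the samples. The fit reported used no pairing. With 6 separate libraries and a replicate block, 1157 genes, 3 members lower (Acsl1, Acadm and Etfdh) and 0 members higher were called.

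3 alternatives were chosen after seeing the data. A fit of only WT1 to WT3 and KO1 called 0 genes and 0 members, 6 separate libraries with the squamous term called 5879 genes (14 members lower, 3 higher), and 6 separate libraries with the offset called 2367 genes (7 lower, 3 higher).

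Fitted log2 fold changes near 0 changed sign, with none of these called. Leaving out 1 library gave -0.079 to 0.022 for Acsl4, -0.15 to 0.16 for Cpt1a, -0.060 to 0.0033 for Eci2, -0.022 to 0.043 for Hsd17b4, -0.079 to 0.10 for Acaa1b and -0.29 to 0.043 for Acot2. The offset gave 0.095 for Acsl4, 0.11 for Eci2, -0.13 for Etfb, 0.049 for Acox3, -0.14 for Acaa1b and -0.12 for Acot2, and with 6 separate libraries 0.12, 0.084, -0.084, 0.072, -0.13 and -0.16. Cpt1a and Acot2 were at -0.030 and -0.077 with 6 separate libraries, -0.028 and -0.10 with the replicate block, -0.023 and -0.038 by total count, -0.057 and -0.075 with the squamous term, and -0.056 and -0.12 with that term and 6 separate libraries (Acaa1b -0.0039). Total count scaling put Hsd17b4 at -0.031. With only WT1, WT2 and KO2 with KO3, Cpt1a was at -0.018, Etfb -0.024, Hsd17b4 -0.020, Acaa1b -0.097 and Acot2 -0.27. With only WT1 to WT3 and KO1, Acsl3 was at -0.055 and Eci2 at 0.024. WT3-against-KO1 values are single differences with no test.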
